A study of Arabidopsis thaliana with 21 samples.

Results

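The 10 genes described here encode late embryogenesis abundant (LEA) proteins and other proteins of the drying seed. They were chosen by locus identifier, with earlier results of these data known: EM1 (AT3G51810), EM6 (AT2G40170), ECP31 (AT3G22500), ECP63 (AT2G36640), AT3G15670, M17 (AT2G41260), M10 (AT2G41280), LEA4-5 (AT5G06760), PER1 (AT1G48130) and RAB18 (AT5G66400). All 10 were among the 25263 genes of the deposited table, and all 10 passed the filter on low values, a mean normalized count of at least 1, as did 22222 genes in all. RNA came from whole, untreated Arabidopsis thaliana seedlings grown for 10 days on 0.8% MS agar at 20 °C with 16 h of light and 8 h of dark. The groups were wild-type Columbia-0 (Col-0) and 6 transgenic lines made in that background, each carrying the cDNA of AtIPCS1, AtIPCS2 or AtIPCS3 behind the constitutive 35S promoter. The AtIPCS genes encode inositol phosphorylceramide synthase, an enzyme of sphingolipid synthesis. Each isoform had a line labelled + for the lower and a line labelled ++ for the higher over-expression, named At1+ and At1++, At2+ and At2++, At3+ and At3++.

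Each group is 1 transgenic line, so the place of the insertion cannot be told apart from the level of the transgene. Each group had 3 libraries, which may be technical, so p-values measure only the spread between these samples. Replicates 1 and 2 labelled At3+ carried the same value for every gene. They differed by less than sampling noise allows, so they count once here, At3+ has n = 2, and 20 libraries were fitted. In the 20 columns whose reads could be recovered, the reads on genes ranged from 12733113 to 17210244. The targeted transcript followed its label for AtIPCS1, at 103 times the Col-0 mean in At1+ and 264 times in At1++. The order was the other way round for AtIPCS2, at 27.5 times in the libraries labelled At2+ and 15.4 times in those labelled At2++, and for AtIPCS3, at 207 times in those labelled At3+ and 101 times in those labelled At3++. The names At2+, At2++, At3+ and At3++ below therefore stand for the libraries so labelled and not for a level of over-expression. Leaf and root markers were present in every library. Summed leaf markers lay between 288770 and 680864 normalized counts, root markers between 21787 and 46200, and flower markers between 18.5 and 55.1. Seed markers, the storage protein and oil body genes, were uneven. Their sum ran from 26.3 to 33.4 in Col-0 and from 733 to 39871 across the lines. In whole seedlings, fewer cells of a type and less RNA per cell cannot be told apart.

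LEA proteins accumulate late in seed development, when the embryo prepares to lose nearly all its water. Most are hydrophilic and lack a fixed fold in solution, and they are thought to shield membranes and other proteins as cells dry. Their genes are switched on in the embryo by abscisic acid (ABA) through bZIP factors such as ABI5, which bind the ABA-responsive element (ABRE) in promoters, together with the B3 factors ABI3, FUS3 and LEC2, which bind the RY element. In a germinated seedling most of these genes are quiet, although some respond again to ABA, cold or drought in leaves and roots. EM1 and EM6 belong to the group 1 or Em family of LEA proteins, ECP63 and AT3G15670 to the LEA_4 family, ECP31 to the seed maturation proteins (SMP) and LEA4-5 to the LEA_1 family. RAB18 is an ABA-induced dehydrin, M10 and M17 are named as LEA proteins in the annotation, M17 as a glycine-rich one, and PER1 is the 1-cysteine peroxiredoxin of seeds, an antioxidant enzyme of the embryo and aleurone.

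The sequence upstream of each gene start was read because most of the 10 genes were called higher in several lines and because ABA-responsive elements are the known handle on many of them. Windows of 250 bases before the annotated start were read from the RefSeq TAIR10.1 assembly for 9 of the members and for 23518 protein-coding nuclear genes of the table in all. The ABRE core, ACGTG on either strand, was found at least 2 times in 7 of these 9 windows, against 9.64% of all windows, and at least once in those same 7, against 23.8%. Where the core lies within the palindromic G-box CACGTG, both strands match and count as 2 overlapping cores. M10 and PER1 reached 2 cores only in this way. The G-box was present in 4 of the 9 windows, against 7.13% of all. Windows are printed below, 5′ to 3′ on the strand of the gene, with ABRE core matches in capitals, for 3 genes: EM6, whose profile over the 7 groups lay close to the members' median profile; LEA4-5, whose profile lay farthest from it; and M17, 1 of the 2 of these genes with no ABRE core in the window, ECP31 being the other.
EM6, chr2:16780369-16780618, minus strand: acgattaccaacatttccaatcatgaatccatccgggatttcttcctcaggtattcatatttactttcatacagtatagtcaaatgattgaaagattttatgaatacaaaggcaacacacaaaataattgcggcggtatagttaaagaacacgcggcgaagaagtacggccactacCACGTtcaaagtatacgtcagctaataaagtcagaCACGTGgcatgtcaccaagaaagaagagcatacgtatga
LEA4-5, chr5:2090431-2090680, minus strand: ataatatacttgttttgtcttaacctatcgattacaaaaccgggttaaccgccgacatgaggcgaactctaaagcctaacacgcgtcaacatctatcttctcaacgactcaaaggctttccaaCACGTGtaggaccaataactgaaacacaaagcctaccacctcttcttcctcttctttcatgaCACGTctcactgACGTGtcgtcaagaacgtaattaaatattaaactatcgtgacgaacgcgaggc
M17, chr2:17206202-17206451, plus strand: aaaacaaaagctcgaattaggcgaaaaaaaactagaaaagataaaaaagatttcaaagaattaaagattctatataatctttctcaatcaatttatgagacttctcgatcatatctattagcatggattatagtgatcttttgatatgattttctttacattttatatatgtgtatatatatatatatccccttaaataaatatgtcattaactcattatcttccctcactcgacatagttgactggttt

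The LEA4-5 window held 4 core matches, the most of the 9. Of these, 2 overlap in its G-box, while AT3G15670 and RAB18 each held 3 matches without a G-box. The RY core CATGCA was found in 1 of the 9 windows, that of ECP31, against 8.32% of all. The core of the drought-responsive element (DRE), CCGAC, was found in 2 of the 9, those of AT3G15670 and LEA4-5, against 12.4%. A match is a description of letters in this window only.

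**Figure D1:**
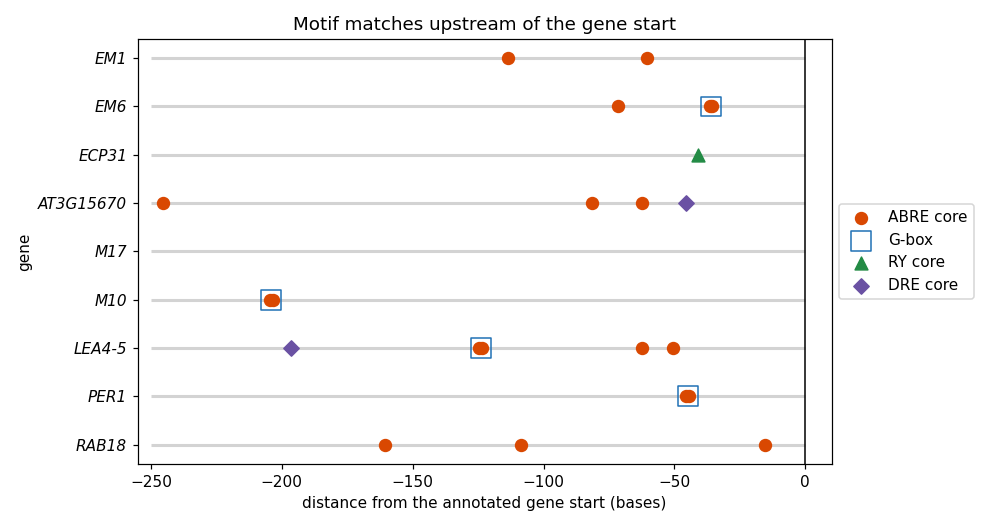
Positions of ABRE core (orange circles), G-box (blue squares), RY core (green triangles) and DRE core (purple diamonds) matches in the 250 bases before the annotated gene start, 1 line per gene, with distance from the start in bases on the x axis. ABRE cores stand in 7 of the 9 windows and M17 has no match to any of the 4 motifs.

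The 10 genes lie on chromosomes 1, 2, 3 and 5, and M17 and M10 are neighbours on chromosome 2, with starts 3245 bases apart. Their longest annotated transcripts run from 602 bases for M10 to 1693 for ECP63, with 2 to 4 exons. No 50-base run of any member's gene body recurred in another annotated protein-coding gene. Per kilobase of transcript, RAB18 had the highest level of the 10 in Col-0, at 338 normalized counts, and ECP31 the lowest, at 0.809. RAB18 remained highest per kilobase in every line, at 1968 in At1++, where M17 was next at 1140.

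The members were raised over Col-0 in 5 of the 6 lines. Differences are log2 fold changes of the normalized count plus 1, which understate the change of low genes, and a gene was called changed when limma's Benjamini-Hochberg adjusted p over all genes tested was under 0.05 and the log2 fold change was at least 1 in size. In At1++ all 10 members were called higher, against 4.06% of all genes tested. In At3++ 9 of 10 were called higher, against 4.04%, in At2++ 9 of 10, against 5.90%, in At2+ 8 of 10, against 4.76%, and in At1+ 6 of 10, against 1.78%. At3+ stood apart with 1 of 10 called higher, against 0.594%, and 3 of 10 called lower, against 1.18%. The median log2 fold change of the 10 was 4.12 in At1++, 2.99 in At3++, 2.56 in At2++, 1.44 in At2+, 1.36 in At1+ and 0.40 in At3+, while the median of all genes tested lay between -0.02 and 0.01. All libraries of the line lay above all those of Col-0 for 10 members in At1++ and At3++, 9 in At2++, 7 in At2+ and At1+, and 2 in At3+. The share of all genes separated in this way was not counted, so these numbers only describe the members. These 6 comparisons share the Col-0 libraries.

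**Figure D2:**
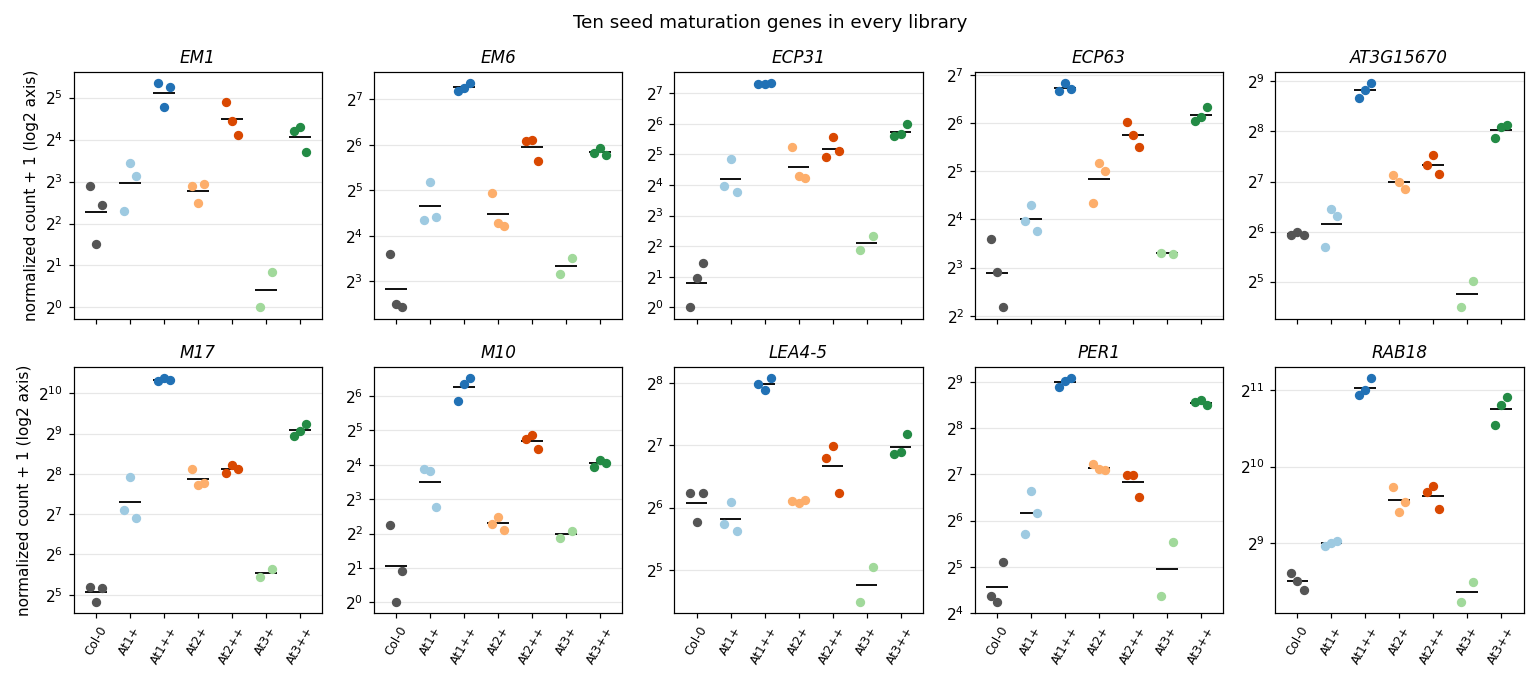
Normalized count plus 1 (log2 axis) of the 10 genes in each of the 20 libraries by group, with the mean on the log2 scale as a bar. The mean of At1++ lies highest for every gene, though for EM1 its libraries overlap those of At2++. Both At3+ libraries lie above every Col-0 library for ECP31 and M17 and below every one for EM1, AT3G15670 and LEA4-5.

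**Figure D3:**
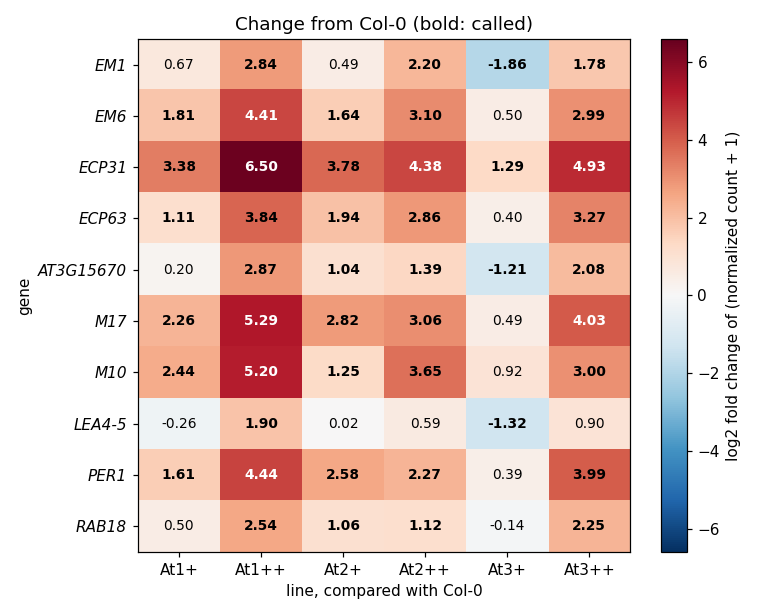
Log2 fold change of normalized count plus 1 against Col-0 for the 10 genes (rows) in the 6 lines (columns), with called values in bold. Values run from -1.86 for EM1 in At3+ to 6.50 for ECP31 in At1++.

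The Em genes EM1 and EM6 were low in Col-0 seedlings. EM1 had 6.49, 1.87 and 4.39 normalized counts in the 3 Col-0 libraries and 39.7, 26.3 and 36.9 in those of At1++. At2++ had 28.9, 20.8 and 16.3, and At3++ had 17.3, 18.8 and 11.98. The ranges of these 3 lines did not overlap that of Col-0, and the log2 fold changes were 2.84 (SE 0.38, limma adjusted p = 1.24e-06) in At1++, 2.20 (SE 0.38, limma adjusted p = 2.68e-05) in At2++ and 1.78 (SE 0.38, limma adjusted p = 0.000535) in At3++. In At1+ it had 3.89, 9.92 and 7.74, and in At2+ 6.41, 4.64 and 6.64. Both of these overlapped Col-0 and neither passed the test. The 2 distinct At3+ libraries held 0 and 1 reads of EM1, 0 and 0.799 normalized counts, below every Col-0 library. The ratio of the At3+ to the Col-0 reads was 0.0989 with an exact 95% counting interval from 0.00234 to 0.650, and the fitted log2 fold change was -1.86 (limma adjusted p = 0.00482). That call was lost with DESeq2 (adjusted p = 0.174), in the fit of the 2 groups alone (adjusted p = 0.0617) and without At3+ replicate 1 (adjusted p = 0.141). Here and below, a fit without an At3+ library leaves 1 library in that group, which is assumed to vary like the other groups. Such intervals cover counting error only, since PCR copies are not independent molecules.

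EM6 had 11.1, 4.67 and 4.39 normalized counts in Col-0 and 143, 151 and 162 in At1++, a ratio of means of 22.6. It had 66.8, 67.7 and 49.0 in At2++ and 55.0, 59.7 and 53.9 in At3++, and the order of these 2 lines was within their spread (log2 difference -0.11, 95% interval -0.64 to 0.43). At1+ (19.5, 35.3 and 20.3) and At2+ (29.5, 18.5 and 17.7) were also above every Col-0 library and were called. The At3+ libraries had 8.02 and 10.4, inside the Col-0 range. EM1, by contrast, was not called in At1+ and At2+, where its interval reached 1.41 and 1.23.

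ECP31 had the largest fold in each of the 6 lines, from the lowest base. Its reads in the 3 Col-0 libraries summed to 3, at 0, 0.935 and 1.76 normalized counts. In At1++ it had 155, 155 and 159, and the ratio of reads to Col-0 was 171 with an exact counting interval from 58.4 to 834. At3++ had 46.9, 49.2 and 62.3 (ratio 57.3, interval 19.2 to 281). The other lines were lower again. At2++ had 28.9, 45.8 and 33.6, At2+ had 37.2, 18.5 and 17.7, and At1+ had 14.6, 27.6 and 12.6. Neighbours in the order At3++, At2++, At2+ and At1+ did not differ beyond their spread. In At3+ it had 2.67 and 3.996, a read ratio of 3.69 whose interval from 0.886 to 21.6 includes 1. The At3+ call (log2 fold change 1.29, limma adjusted p = 0.0285) was lost without the filter on low values (adjusted p = 0.0518), with edgeR (adjusted p = 0.271) and DESeq2 (adjusted p = 0.286) on recovered reads, in the fit of the 2 groups alone (adjusted p = 0.240), and without Col-0 replicate 1 (adjusted p = 0.160), At3+ replicate 1 (adjusted p = 0.0789) or At3+ replicate 3 (adjusted p = 0.259).

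The LEA_4 genes ECP63 and AT3G15670 started from different levels, 4.17 and 59.7 normalized counts per kilobase of transcript in Col-0. ECP63 had 11.1, 6.54 and 3.51 normalized counts in Col-0 and rose to 100, 113 and 104 in At1++, to 65.2, 69.1 and 79.1 in At3++ and to 63.8, 53.1 and 44.2 in At2++. No library of these 3 lines overlapped Col-0, and the ratios of means were 14.9, 10.1 and 7.60. It had 19.2, 34.8 and 31.0 in At2+ and 14.6, 18.7 and 12.6 in At1+, where the log2 fold change of 1.11 (SE 0.27, limma adjusted p = 0.00301) fell to 0.75 without Col-0 replicate 3 and 0.97 without At1+ replicate 2, under the minimum. Its At3+ values were 8.91 and 8.79, between the Col-0 libraries. AT3G15670 was steady in Col-0, at 60.3, 62.6 and 59.7, and reached 406, 457 and 499 in At1++ and 233, 273 and 278 in At3++. It was called higher in At2++ (160, 184 and 140) and At2+ (140, 126 and 114), in the latter with a log2 fold change of 1.04 that fell to 0.83 with scaling over nuclear genes and 0.97 without At2+ replicate 1. At1+ (50.6, 86.0 and 78.4) overlapped Col-0. In At3+ it had 21.4 and 31.2, below every Col-0 library, a log2 fold change of -1.21 (SE 0.18, limma adjusted p = 6.31e-05), and -0.94 without At3+ replicate 1, under the minimum.

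M17 and M10, the neighbours on chromosome 2, differed in level, at 28.55 and 2.54 normalized counts per kilobase of transcript in Col-0, and in the AtIPCS2 lines. M17 had 35.2, 27.1 and 35.1 normalized counts in Col-0 and 1274, 1335 and 1283 in At1++, a ratio of means of 39.9. At3++ had 490, 534 and 606, At2++ had 258, 296 and 275, At2+ had 276, 212 and 219, and At1+ had 136, 243 and 119. All 5 lines stood above Col-0 with no overlap, and At2++ did not differ from At2+ beyond the spread (log2 difference 0.24, 95% interval -0.09 to 0.57). The At3+ values were 42.7 and 48.7, above every Col-0 library by a log2 fold change of 0.49 that did not pass the test (limma adjusted p = 0.115). M10 had 3.71, 0 and 0.878 in Col-0, from 5 reads in all, and 56.9, 81.3 and 91.3 in At1++. The ratio of reads was 49.998 with a counting interval from 21.2 to 155. At2++ followed with 25.9, 28.1 and 21.1, then At3++ with 14.3, 16.7 and 15.6, and At1+ with 13.6, 13.2 and 5.81. At2+ was lower, at 3.84, 4.64 and 3.32, overlapping Col-0. Its call (log2 fold change 1.25, limma adjusted p = 0.0135) was lost with edgeR (adjusted p = 0.181), with DESeq2 (adjusted p = 0.193), in the fit of the 2 groups alone (adjusted p = 0.118) and without Col-0 replicate 2 (adjusted p = 0.134). In At3+ M10 had 2.67 and 3.20, within the Col-0 range, and without Col-0 replicate 1 its log2 fold change of 0.92 became 1.52 and was called (adjusted p = 0.0198).

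LEA4-5 had the lowest log2 fold change of the 10 in every line but At3+. It had 74.2, 53.3 and 74.6 normalized counts in Col-0, and 251, 236 and 269 in At1++ (log2 fold change 1.90, SE 0.18, limma adjusted p = 6.47e-09). At3++ had 115, 117 and 144, above every Col-0 library but with a log2 fold change of 0.90, under the minimum of 1. At2++ (110, 126 and 73.9), At2+ (67.9, 66.1 and 68.6) and At1+ (52.5, 67.3 and 48.4) overlapped Col-0. The At2+ value of 0.02 has no fixed sign, at -0.19 with scaling over nuclear genes, and the At1+ value was -0.26 (limma adjusted p = 0.325). In At3+ it had 21.4 and 31.96, below every Col-0 library, a log2 fold change of -1.32 (SE 0.20, limma adjusted p = 9.78e-05).

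PER1, the seed peroxiredoxin, had 19.5, 17.8 and 33.4 normalized counts in Col-0. It had 475, 516 and 544 in At1++ and 377, 388 and 362 in At3++, and these lines did not differ beyond their spread (log2 difference of At3++ from At1++ -0.44, 95% interval -0.91 to 0.02). At2+ had 149, 137 and 135, At2++ had 127, 125 and 90.2, and At1+ had 51.6, 98.1 and 70.7. PER1 was thus called in the same 5 lines as M17, with its level in At2+ not separable from that in At2++ (log2 difference of At2++ from At2+ -0.31, 95% interval -0.78 to 0.15). In At3+ it had 19.6 and 45.5, and the log2 fold change of 0.39 turned to -0.20 without At3+ replicate 3.

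RAB18, the dehydrin, was the best expressed of the 10 per kilobase and had 388, 362 and 334 normalized counts in Col-0. It had 1962, 2055 and 2293 in At1++ and 1487, 1790 and 1919 in At3++, ratios of means of 5.82 and 4.79. At2++ had 809, 856 and 696 and At2+ had 853, 678 and 739, both above Col-0 and not separable from each other (log2 difference 0.06, 95% interval -0.14 to 0.25). At1+ had 495, 510 and 522, all above Col-0 by a log2 fold change of 0.50 (SE 0.10, limma adjusted p = 0.000481), under the minimum of 1. The calls in At2+ (1.06) and At2++ (1.12) were close to that minimum and fell to 0.85 and 0.90 with scaling over nuclear genes, and the At2+ value to 0.97 without At2+ replicate 1. The At3+ libraries had 297 and 359, overlapping Col-0.

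The lines of 1 isoform were then compared with each other. In At1++ all 10 members were higher than in At1+, against 5.63% of all genes tested, with log2 differences from 2.04 for RAB18 to 3.11 for ECP31 and a median of 2.70. In At3++ all 10 were higher than in At3+, against 2.94%, from 2.07 for M10 to 3.64 for EM1 and ECP31, with a median of 3.08. In At2++ 3 of 10 were higher than in At2+, against 1.11%, and the median was 0.58. These were M10 (2.40, SE 0.40, limma adjusted p = 0.000101), EM1 (1.72, SE 0.38, limma adjusted p = 0.00187) and EM6 (1.46, SE 0.27, limma adjusted p = 0.000369). Of the other 7, ECP63 (0.93) and LEA4-5 (0.57) passed the adjusted p but not the minimum fold. The AtIPCS1 transcript was higher in At1++ than in At1+, whereas AtIPCS3 was lower in the libraries labelled At3++ than in those labelled At3+.

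**Figure D4:**
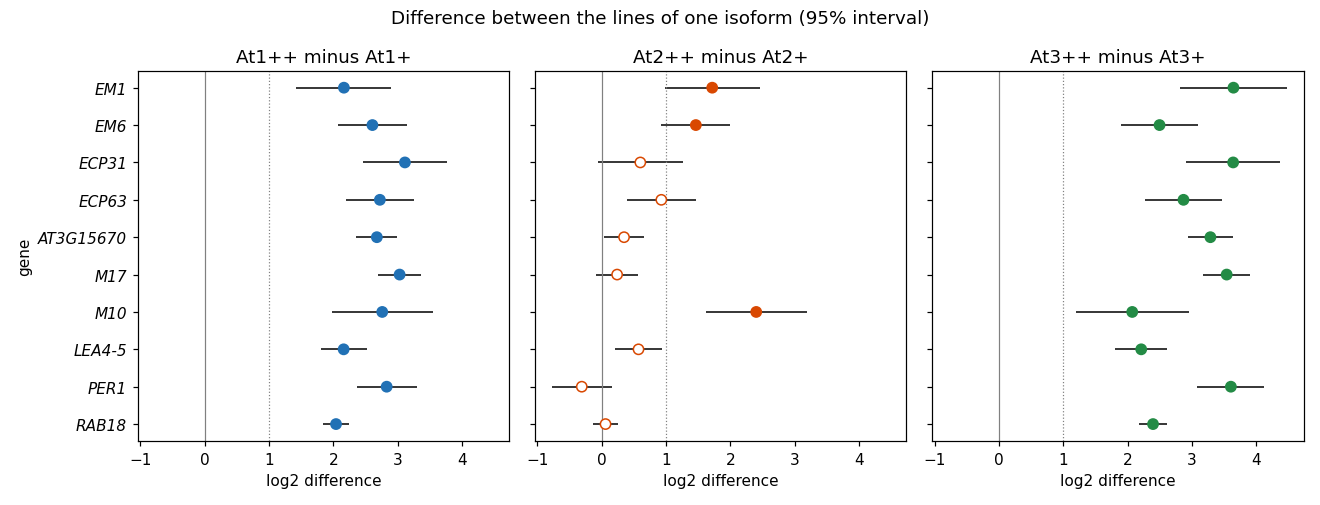
Log2 difference of normalized count plus 1 between the ++ and the + line of each isoform for the 10 genes, with 95% intervals; filled points are called, and the dotted line marks the minimum of 1. All 10 are called for AtIPCS1 and AtIPCS3, and EM1, EM6 and M10 for AtIPCS2.

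The difference between these changes, from + to ++ as labelled, was tested as an interaction. The change from At1+ to At1++ exceeded that from At2+ to At2++ for 8 of 10 members, against 6.75% of all genes tested called in either direction, by 1.15 for EM6 to 3.14 for PER1 on the log2 scale. EM1 (0.45, 95% interval -0.60 to 1.49) and M10 (0.36, 95% interval -0.75 to 1.47) were the exceptions. The change in the AtIPCS2 lines was smaller than that in the AtIPCS3 lines for 8 of 10, against 5.39%, by 1.64 for LEA4-5 to 3.92 for PER1, with EM6 (-1.03, limma adjusted p = 0.0742) and M10 (0.33, limma adjusted p = 0.750) not called. Between the AtIPCS1 and AtIPCS3 lines 0 of 10 differed by limma, against 7.92%, with 1 called by edgeR on recovered reads. The differences ran from -1.48 for EM1, whose interval of -2.59 to -0.37 excluded 0 at an adjusted p of 0.0530 by limma, to 0.69 for M10. These results hold for the labelled direction. In an alternative chosen after seeing the data, each isoform's change was instead taken from the line with less of its transcript to the line with more, which turns AtIPCS2 and AtIPCS3. The AtIPCS1 change then exceeded that of AtIPCS3 for all 10 members, by 4.37 for LEA4-5 to 6.75 for ECP31, against 16.3% of all genes tested called in either direction. It exceeded that of AtIPCS2 for all 10 as well, by 2.10 for RAB18 to 5.16 for M10, against 16.5%. Each of these contrasts is the sum of the ++ minus + differences of both isoforms, already compared above, so it is not a separate test. Between AtIPCS2 and AtIPCS3 the same 8 members were called with the sign changed.

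Lines of different isoforms were compared last. At3++ was lower than At1++ for 6 of 10 members, against 1.28% of all genes tested: M10 by -2.20, ECP31 by -1.56, EM6 by -1.42, M17 by -1.26, EM1 by -1.05 and LEA4-5 by -1.01 on the log2 scale. At3++ was higher than At2++ for 2 of 10, against 2.65%, namely PER1 (1.73, SE 0.24) and RAB18 (1.13, SE 0.10). At2+ was lower than At1+ for 1 of 10, M10 (-1.20, limma adjusted p = 0.0144), against 3.37%, a call lost with a pseudocount of 0.1 and without At1+ replicate 1 or 2. The median difference of the 10 was 0.48, and ECP63 (0.82), AT3G15670 (0.84), M17 (0.56), PER1 (0.97) and RAB18 (0.56) passed the adjusted p in the other direction, under the minimum fold. At1++ held the highest mean for every member, not separable from the next line for EM1, ECP63 and PER1. The second place was held by At2++ for EM1, EM6 and M10 and by At3++ for the other 7, and the second place and the one after it, for EM1, EM6, ECP31, ECP63, M10 and LEA4-5, did not differ beyond their spread.

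Other LEA genes were called in both directions. Of 40 further LEA family genes, 35 passed the filter, and their median log2 fold change lay between -0.40 in At1+ and 0.33 in At1++. In At1++ 9 were called higher and 2 lower, in At2++ 5 and 3, in At3++ 5 and 2, in At2+ 2 and 4, in At1+ 1 and 3, and in At3+ 0 and 12. Over the 6 lines 10.5% of their tests were called higher and 12.4% lower, against 3.52% and 3.01% over all genes tested. Of 14 other genes of the LEA_4 family, that of ECP63 and AT3G15670, 6 were called higher and 1 lower in At1++, and 0 and 7 in At3+. The counts were 4 and 1 in At3++, 3 and 1 in At2++, 2 and 0 in At2+, and 0 and 3 in At1+. Of all genes tested, 4.06% were called higher in At1++ and 1.18% lower in At3+. Of the 9 other dehydrins, relatives of RAB18, no more than 2 were called in either direction in any line, and the cold-induced dehydrin COR47 and its relatives ERD10 and ERD14 were not called in any. AT2G21490 was called higher in At1++ (2.24) and lower in At3+ (-1.64). AT4G38410 was called higher in At1++ (2.00) and At2++ (2.27), and XERO1 lower in At2+ (-1.61) and At3+ (-1.22).

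The COR15 genes of the LEA_4 family encode chloroplast proteins of cold acclimation. COR15A had 2792 ± 123 normalized counts in Col-0 (SD, n = 3), 11530 ± 1732 in At2++, 10577 ± 540 in At3++, 7354 ± 636 in At2+ and 6339 ± 651 in At1++, all 4 called higher, and 969 ± 95 in At1+, called lower. COR15B was called higher in At2+, At2++ and At3++ (1.48, 1.64 and 1.71) and lower in At1+ (-1.38). Unlike the 10 members, whose level in At1+ exceeded or overlapped that of Col-0, both fell there. The other LEA_1 genes, relatives of LEA4-5, were never called higher. LEA4-1 (AT1G32560) fell from 163 ± 19 in Col-0 to 74.2 ± 14.9 in At1++ and was called lower in every line but At1+, and LEA18 (AT2G35300) fell in At2+, At2++ and At3+ (-1.78, -1.64 and -1.93). AT2G03850 of the LEA_4 family was low throughout, at 9.75 normalized counts in Col-0 and 0.598 to 4.65 in the lines, and was called lower in At1++, At2++ and At3++. AT3G22490, an SMP gene whose start lies 1944 bases from that of ECP31, was at 0.93 normalized counts in Col-0, 35.9 in At1++, 12.6 in At3++ and 5.01 in At2++, the 3 lines in which it was called.

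**Figure D5:**
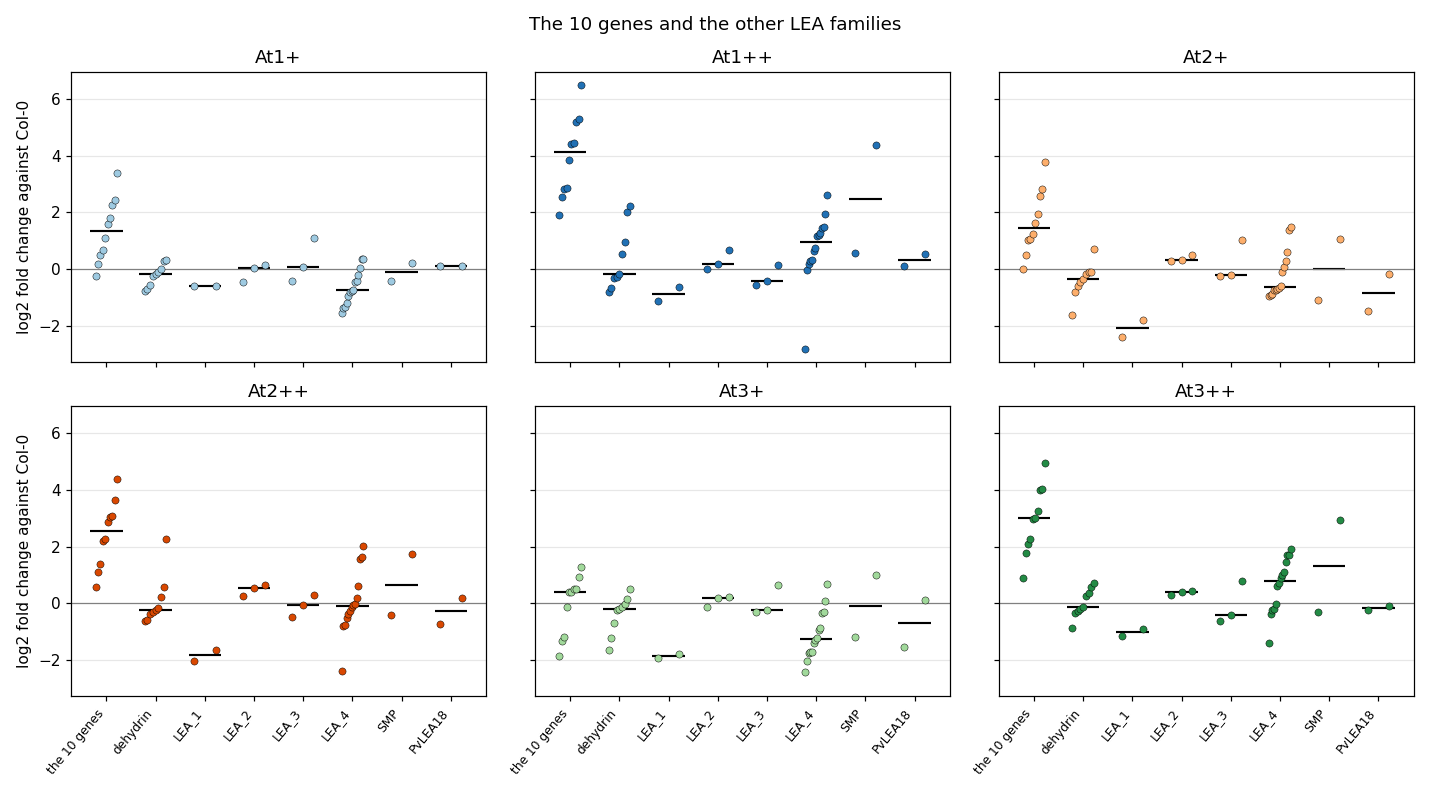
Log2 fold change against Col-0 of the 10 genes and of the 35 other LEA family genes tested, by family (x axis) and line (panels), 1 point per gene with the family's median as a bar. The median of the 10 lies above that of every other family in all 6 lines, while LEA_1 lies below 0 throughout.

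The known regulators were called in both directions. Of 20 ABA and seed maturation regulators, 17 passed the filter, and over the 6 lines 4.90% of their tests were called higher (5 calls) and 5.88% lower (6 calls), against 3.52% and 3.01% over all genes tested. ABI3, the B3 factor of seed maturation, had 9.71 ± 4.67 normalized counts in Col-0 (SD, n = 3) and was called higher in At1++ (1.51), At2+ (1.19) and At3++ (1.72). ABI4 made up the other higher calls, in At2+ (1.58) and At2++ (2.64). It was at 0 in every Col-0 library and had low means of 2.29 and 5.69 normalized counts in those lines. ABI5, the bZIP factor that binds Em promoters, was not called higher in any line and had -1.22 in At2+, where it was called lower. It passed the adjusted p but not the minimum fold in At2++ (-0.87), At3+ (-0.84) and At3++ (-0.85). DOG1, a gene of seed dormancy, fell in 4 lines, by -1.39 in At1++ to -3.52 in At2++. In At3+ it had -1.51, which did not pass the test (limma adjusted p = 0.0616). FUS3 had 0.878 normalized counts in Col-0 and 2.94 in At1++, and was not called.

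Genes of the vegetative response to ABA and dehydration were mixed. Over all lines together, 14.9% of their tests were called higher and 13.2% lower, against 3.52% and 3.01% over all genes tested. Of the 19, 4 were called higher and 2 lower in At1++, 5 and 1 in At2++, 4 and 2 in At2+, 3 and 1 in At3++, 1 and 5 in At1+, and 0 and 4 in At3+. HAI2 and HAI3, phosphatases of the highly ABA-induced group, followed the members most: HAI2 was called higher in all lines but At3+ (1.47 to 3.17), and HAI3 in At1++, At2+, At2++ and At3++ (1.43 to 3.72). KIN1, a cold-induced gene, was higher in At2+, At2++ and At3++ (1.62, 2.31 and 1.51) and lower in At1+ (-1.07), and GOLS2, an enzyme of raffinose sugar synthesis, was higher in At1++, At2+ and At2++ (2.64, 1.57 and 1.28). The ABA-responsive genes HB12 and RD20 fell, HB12 in At2+, At2++, At3+ and At3++ (-1.01 to -1.39) and RD20 in At1+, At1++ and At3+ (-1.01 to -1.11). The drought marker RD29B, a classic ABA target, was lower in At2+ and At3+ (-1.26 and -1.76). RD29A was lower in At1+ and At1++ (-1.09 and -1.56), and KIN2 in At1+ and At3+ (-1.89 and -1.17).

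Genes of seed storage proteins and oil bodies, which mark embryo tissue, followed the members only in part. All 12 were called higher in all 6 lines, At3+ included, against 3.52% of tests over all genes. This list was chosen with earlier results of these data known, and the study reports these genes among those up-regulated in its lines. The calls therefore describe the list and do not test it. Their summed level was 26.3 to 33.4 normalized counts in Col-0, with 4 of the 12 at 0 in every Col-0 library, 34928 to 39871 in At1++, 15827 to 19459 in At3++, 7060 to 9099 in At2+, 3513 to 3870 in At2++, 2214 to 3661 in At1+ and 733 to 1311 in At3+. CRU3, a cruciferin, had a mean of 0.309 in Col-0 and 11922 in At1++. The 10 members summed to 537 to 610 in Col-0, 4863 to 5442 in At1++ and 425 to 543 in At3+, so that the storage genes rose in At3+ while the summed members did not. RAB18 made up most of that sum, with a mean of 361 of 566 in Col-0 and 328 of 484 in At3+. Gene by gene, 1 member was called higher and 3 lower in At3+, with a median log2 fold change of 0.40. Between the AtIPCS2 lines the storage sum was lower in At2++ than in At2+, with no overlap, whereas EM1, EM6 and M10 were higher. Of the 9 leaf and root markers none was called lower in any line. RBCS2B and EXPA7 were called higher in At1++, At2+, At2++ and At3++, RBCS1A in At2+ and At2++, PYK10 in At3++ and COW1 in At1++. CAB2 had -0.59 in both At1++ and At3++, under the minimum fold, and PIN2 and LHB1B1 were not called in any line. The part of embryo tissue, of leaf and root shares and of the identity of each insertion in the change of the 10 genes was not tested.

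The genes nearest to the median profile of the members over the 7 group means, by the root mean square difference of centred log2 values, were AT3G05260, annotated as a Rossmann-fold protein (0.20), AT1G65090, annotated as nucleolin (0.28), AT5G66780, annotated as a late embryogenesis abundant protein (0.30), GLYI8 (AT2G28420), annotated as a glyoxalase I family protein (0.31), and AT5G43770, annotated as a proline-rich protein (0.31). Among the members, ECP63 and EM6 ranked 2 and 3 of all genes tested on this measure, and LEA4-5 ranked last at 94. The ranks of the members describe how closely each follows a profile that they themselves set. AT3G05260 had 2.72 normalized counts in Col-0, 96.3 in At1++, 43.8 in At3++, 30.7 in At2++, 18.5 in At2+, 11.9 in At1+ and 5.82 in At3+.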

How the data were processed

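The members and gene lists were chosen with earlier results of these data known. RNA-seq libraries of 21 seedling samples were analysed. The study's methods name trimming with Trimmomatic, alignment with STAR to the Araport annotation, counting with HTSeq and DESeq2; versions are not given in the sources used here. The deposited table holds 1 signal per gene and library, counts that the authors divided by a size factor per library. In 20 of the 21 columns 100% of values came out as whole reads, within 0.01, on division by the step of the column; At2++ replicate 1 has a step of 0.997 and was kept out of count tests. Every per-sample column was mapped to a sample, and At3+ replicate 2, identical to replicate 1, was not fitted.

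Values were tested as log2(value + 1) with limma 3.58.1 in R 4.3.3, with an intensity trend, in 1 fit of all 7 groups and of the 22222 genes whose mean was 1 or more, since the deposited values are not counts. A call needs a Benjamini-Hochberg adjusted p under 0.05 and a log2 fold change of at least 1 in size. For At1+, At1++, At2+, At2++, At3+ and At3++ against Col-0, edgeR 4.0.16 on recovered reads called 759, 1840, 1450, 2205, 410 and 1264 genes, and limma 831, 2019, 1655, 2402, 395 and 1411. DESeq2 1.42.0 was the other alternative. Alternatives also covered the filter, the pseudocount, scaling over nuclear genes, the groups fitted, a replicate block, the minimum fold and each library left out. Scripts were tested on simulated data. Besides all members, genes named from other lists were called in at least 3 lines, at most 4 per list and direction. COR47, ERD10, ERD14, AT2G21490, AT4G38410, XERO1, ABI4, ABI5, FUS3, RD29A, RD29B and KIN2 were named after their values were seen. Promoter windows came from RefSeq TAIR10.1; that of 1 member is not reported here.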

Additional observations from a re-analysis of the deposited data

Results flagged for a closer look

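The change from the + to the ++ line differed between isoforms for 9 of the 10 members, by a test of the difference itself (limma interaction, log2 scale). That count joins 3 contrasts. Members called were 8 for AtIPCS1 and AtIPCS2, against 6.75% of all genes tested, and 8 for AtIPCS2 and AtIPCS3, against 5.39%. For AtIPCS1 and AtIPCS3 they were 0, against 7.92%. The share of all genes called in any of the 3 was not counted. The AtIPCS1 change exceeded the AtIPCS2 change by 1.15 for EM6, 2.51 for ECP31, 1.80 for ECP63, 2.33 for AT3G15670, 2.79 for M17, 1.59 for LEA4-5, 3.14 for PER1 and 1.98 for RAB18. The AtIPCS2 change minus the AtIPCS3 change was -1.93 for EM1, -3.04 for ECP31, -1.94 for ECP63, -2.94 for AT3G15670, -3.30 for M17, -1.64 for LEA4-5, -3.92 for PER1 and -2.34 for RAB18. Both sets share the AtIPCS2 libraries, and the labels of At2+ and At2++ and of At3+ and At3++ go against their transcript order. With each change taken in transcript order instead, an alternative chosen after seeing the data, the AtIPCS2 and AtIPCS3 difference changes sign only. The AtIPCS1 change then exceeds both others for all 10 members, against 16.5% (AtIPCS2) and 16.3% (AtIPCS3) of all genes tested called in either direction. These contrasts only add the ++ minus + differences of both isoforms and are not a separate test.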

How the results depend on the processing

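Of 350 member fold changes with a library left out, 337 kept their direction and side of the threshold, 10 lost the call, 1 gained it and 2 reversed; of 410 under other settings, 396 kept both, 12 lost the call and 2 reversed. The reversals were LEA4-5 in At2+ (0.02 became -0.0064 with edgeR, -0.19 with nuclear scaling and -0.14 to 0.10 with a library left out, the lowest without Col-0 replicate 2) and PER1 in At3+ (0.39 became -0.20 to 0.98 with a library left out, the lowest without At3+ replicate 3, which leaves 1 library in that group, assumed to vary like the other groups). Members called higher in At3+ went from 1 to 0 with no filter, edgeR, DESeq2 or the 2 groups alone, and were 0 to 1 with a library left out; those called lower were 1 to 3. With no minimum fold, At2++ exceeded At2+ for 5 members in place of 3 and At3++ exceeded At2++ for 4 in place of 2. At2+ below At1+ went from 1 to 0 with a pseudocount of 0.1 and was 0 to 1 with a library left out. The AtIPCS1 and AtIPCS3 changes differed for 1 member with a pseudocount of 0.1, edgeR or only the groups compared, for 0 to 2 with a library left out, and for 10 with the direction taken by transcript order, a setting chosen after seeing the data. With no minimum fold, calls over the 6 lines went from 22 to 46 higher and 26 to 70 lower for other LEA genes, 5 to 8 and 6 to 42 for regulators, and 17 to 36 and 15 to 46 for the vegetative list. Regulators called higher were 3 with edgeR and DESeq2 and 3 to 5 with a library left out, and called lower 10 with nuclear scaling. That scaling took the median of all genes to -0.10, -0.10, -0.21, -0.23, -0.03 and -0.16 in At1+, At1++, At2+, At2++, At3+ and At3++. Libraries of the same number did not deviate together (45 pairs, correlations from -0.12 to 0.14), and with the replicate block, fitted without At3+, the members called higher than Col-0 stayed 6, 10, 8, 9 and 9 for At1+, At1++, At2+, At2++ and At3++. Depth limits EM1, ECP31 and M10, at 14, 3 and 5 reads in all of Col-0, and no paired analysis was possible for At3+ because its columns 1 and 2 are identical. The cause of these moves was not tested.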
